A study of Mus musculus with 6 samples.

Results

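The non-clustered delta protocadherins are single-pass membrane proteins of the cadherin superfamily. The members followed here were given by name: *Pcdh1*, *Pcdh7*, *Pcdh9* and *Pcdh11x* of the delta-1 subgroup, *Pcdh8*, *Pcdh10*, *Pcdh17*, *Pcdh18* and *Pcdh19* of the delta-2 subgroup, and *Pcdh20*. They are 10 of the 53378 genes that had a value in every library. The family was taken up because *Pcdh17* was among the largest increases in the libraries labelled Cre, so the difference of *Pcdh17* is described without a test. The other members were included as members of the family, though the choice was made with earlier results of these data known.

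The values come from RNA-seq of neural stem cells (NSCs), dividing precursors of neurons and glia. They were derived from the telencephalic cortex of mouse embryos at E14.5, kept as neurospheres with bFGF and EGF, and carried the Tbl1xr1 flox/flox alleles in both groups. *Tbl1xr1* encodes a subunit of the NCOR corepressor complex. Control cells (libraries 1, 1_1 and 2) received a lentivirus with GFP only, and the other cells (libraries 2, 2_2 and 3, here the libraries labelled Cre) one with Cre-GFP, whose recombinase removes a floxed exon, after which GFP+ cells were sorted. The sources used here do not state which embryo each culture came from, or whether 1 and 1_1, or 2 and 2_2, share a culture. The p-values therefore measure the spread between these libraries, which may be technical, and an effect of the deletion cannot be told apart from cultures of different origin.

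Delta protocadherins bind the same protein on a neighbouring cell through their cadherin repeats, and their tails connect to regulators of the actin cytoskeleton. In the developing brain each is found in its own set of regions and layers, and they are known for parts in cell sorting, axon growth and synapse formation. The subgroups differ in the number of extracellular repeats and in conserved motifs of the tail, and the delta-1 tail holds a docking motif for protein phosphatase 1.

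Normalized counts, the authors' read counts per gene divided by 1 size factor per library, are the unit throughout. Reads on genes numbered 7510615 to 11161497 per control library and 11893230 to 14828100 per library labelled Cre, so counting error is smaller in the latter. The targeted gene, *Tbl1xr1*, had 2522, 2190 and 2721 normalized counts in control and 3774, 3463 and 2905 under the label Cre. The count over the whole gene was thus not lower there (log2 fold change 0.45, standard error 0.14, limma adjusted p = 0.06, and 0.0398 by DESeq2), and this count does not measure the floxed exon on its own. The study describes separate checks of sorted cells for genotype by PCR, for *Tbl1xr1* mRNA by RT-qPCR and for its protein by Western blot, which are not among the files analysed here. The group is called by its label. All 10 NSC markers passed the filter on counts, with between 38962 and 42730 summed normalized counts in control and between 39461 and 41481 in the libraries labelled Cre. Of them 1, *Nes*, was lower (limma adjusted p = 0.00384), where 5.22% of all genes tested were lower. The sums hide opposite differences, with 6 positive and 4 negative log2 fold changes. *Vim* had means of 12650 in control and 9949 under the label Cre (limma adjusted p = 0.105). *Fabp7* had 6263 and 8218 (limma adjusted p = 0.122).

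The promoters of 4 members are shown because they cover the widest range of responses: the largest increase (*Pcdh17*), the next (*Pcdh10*), a delta-1 member that rose (*Pcdh9*), and the 1 member with a negative difference (*Pcdh19*). Each runs from 250 bases before to 50 bases after an annotated start (RefSeq, build GRCm38.p6, which is mm10) and is written 5′ to 3′ on the strand of the gene. The *Pcdh9* window lies inside the annotated gene, which ends at 93892834, so it is at an internal start. A second *Pcdh9* window, at 93890620-93890919, is not shown. Capitals mark GGGCGG (the GC box), CCAAT (the CCAAT box) and CANNTG (the E-box), read on either strand.
Pcdh17, chr14:84443313-84443612, plus strand: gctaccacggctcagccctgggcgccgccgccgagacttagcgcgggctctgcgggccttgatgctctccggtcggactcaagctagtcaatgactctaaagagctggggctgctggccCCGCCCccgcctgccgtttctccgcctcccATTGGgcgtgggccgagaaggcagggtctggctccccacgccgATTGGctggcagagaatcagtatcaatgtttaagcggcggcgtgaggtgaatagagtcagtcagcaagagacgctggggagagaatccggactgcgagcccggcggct
Pcdh10, chr3:45378148-45378447, plus strand: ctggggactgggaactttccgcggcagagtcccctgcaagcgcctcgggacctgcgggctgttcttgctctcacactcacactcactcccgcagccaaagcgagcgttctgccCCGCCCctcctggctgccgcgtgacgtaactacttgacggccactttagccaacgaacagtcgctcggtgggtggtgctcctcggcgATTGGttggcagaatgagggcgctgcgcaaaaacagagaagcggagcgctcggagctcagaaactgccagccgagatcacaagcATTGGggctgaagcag
Pcdh9, chr14:93890630-93890929, minus strand: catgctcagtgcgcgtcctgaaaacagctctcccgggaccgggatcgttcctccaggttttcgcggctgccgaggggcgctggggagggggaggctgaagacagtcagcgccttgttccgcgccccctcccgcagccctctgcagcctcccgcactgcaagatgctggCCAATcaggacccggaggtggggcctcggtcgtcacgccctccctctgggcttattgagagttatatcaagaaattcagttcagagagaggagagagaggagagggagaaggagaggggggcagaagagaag
Pcdh19, chrX:133688944-133689243, minus strand: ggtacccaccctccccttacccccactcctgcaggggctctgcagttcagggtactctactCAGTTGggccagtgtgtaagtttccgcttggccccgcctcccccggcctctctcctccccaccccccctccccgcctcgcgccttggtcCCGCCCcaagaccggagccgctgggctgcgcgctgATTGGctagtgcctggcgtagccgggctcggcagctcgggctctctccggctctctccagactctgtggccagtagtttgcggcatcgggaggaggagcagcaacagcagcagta

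Promoters of 8 of the 10 members were matched in the RefSeq sequences used here, and those of *Pcdh1* and *Pcdh11x* were not analysed here. The *Pcdh7* window, from 57717831, also lies inside its annotated gene, which begins at 57716145. The letters GGGCGG stood in 4 of the 8 (*Pcdh10*, *Pcdh17*, *Pcdh18* and *Pcdh19*), beside 35.7% of all 32851 promoters of the same length. In *Pcdh17* the match began at position -131 from the start and in *Pcdh10* at -137. CCAAT, a motif added after the sequences had been seen, stood in 7 of the 8, all but *Pcdh7*, beside 37.4% of all promoters. CANNTG was found in 2 of the 8 (*Pcdh7* and *Pcdh19*), beside 72.3%. TATAAA was found in 1 (*Pcdh8*), beside 13.6%, and AGGTCA, the half-site of many nuclear receptors, in 0 of the 8, beside 16.3%. The *Pcdh17* window was 65% G and C with 26 CpG pairs, against medians of 52.7% and 7 over all promoters. That of *Pcdh18* was 63% with 23 pairs and that of *Pcdh19* 67.7% with 18. Of the members with almost no reads, *Pcdh8* had 54.3% with 14 pairs and *Pcdh20* 43.7% with 4. Only the window of *Pcdh20* was below both medians. Of the members with GGGCGG, *Pcdh18* and *Pcdh19* did not pass the test given below, and of those without it *Pcdh7* and *Pcdh9* did. A match of letters is a description and not a bound site.

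In the libraries labelled Cre, mRNA of *Pcdh7*, *Pcdh9*, *Pcdh10* and *Pcdh11x* rose by about 1.88 to 2.54 times, *Pcdh17* was 23.8 times its control mean, and *Pcdh1*, *Pcdh18* and *Pcdh19* did not pass the test. *Pcdh8* and *Pcdh20* were close to 0 in both groups. Differences were tested with limma on log2(normalized count + 1) over the 14840 genes with a mean of at least 10 normalized counts, with Benjamini-Hochberg adjustment over all of them. Values given as times are ratios of the mean normalized counts, while log2 fold changes are differences of this logarithm and understate the change of genes with few counts. Of the 10 members 8 were tested, and each tested member was above the limit of 10 in the control mean as well. Of the 7 tested members other than *Pcdh17*, 4 were higher at an adjusted p under 0.05 and 0 lower (0 also at an unadjusted p under 0.05, and 0 by edgeR or DESeq2). Over all genes tested, 4.74% were higher and 5.22% lower. The median log2 fold change was 0.88 for these 7 members and -0.001 over all genes tested. Because the family was chosen on this same contrast, these shares are a description of its members.

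**Figure D1:**
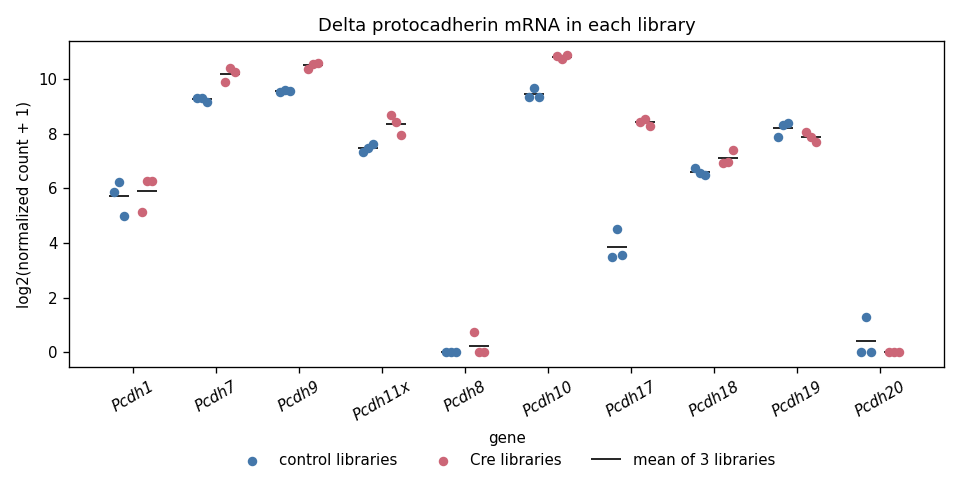
Level of each of the 10 genes on the log2(normalized count + 1) scale (vertical axis), with 1 point per library, control in blue and Cre in red, and a line at the mean of 3 libraries. The red points lie above all blue points for *Pcdh7*, *Pcdh9*, *Pcdh11x*, *Pcdh10*, *Pcdh17* and *Pcdh18*, while *Pcdh8* and *Pcdh20* lie at or near 0.

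*Pcdh17*, which in neurons takes part in axon extension and in the assembly of synapses, had 10.1, 21.9 and 10.7 normalized counts in control libraries 1, 1_1 and 2. These rest on 11, 15 and 8 reads. In the libraries labelled Cre it had 346, 366 and 306 normalized counts, from 499, 425 and 342 reads. The groups were far apart, with every library labelled Cre more than 10 times above the highest control library. The mean was 14.2 ± 6.68 (SD, n = 3) in control against 339 ± 30.3 (SD, n = 3), a log2 fold change of 4.56 (standard error 0.29). This was rank 4 among the 14840 genes tested and rank 3 among the 11135 with a mean of at least 50, the value for which the family was chosen. The control values vary much more for their size than those of the other group, with a coefficient of variation of 46.9% against 8.94%. Over 16 alternative settings the log2 fold change ran from 4.21 to 4.90.

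*Pcdh10* (OL-protocadherin), which guides axons of the forebrain and binds the WAVE complex through NCKAP1, was the other delta-2 member that rose. It had 653, 806 and 652 normalized counts in control and 1810, 1701 and 1852 in the libraries labelled Cre. The groups did not overlap, and the spread within the libraries labelled Cre was small. The mean went from 704 ± 88.5 (SD, n = 3) to 1787 ± 77.7 (SD, n = 3), a difference of 1.35 in log2 (limma, standard error 0.12, adjusted p = 0.000112). It passed in each of the 16 alternatives, at 1.30 to 1.45.

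In the delta-1 subgroup, 3 of the 4 members rose, where 4.74% of all genes tested were higher. *Pcdh9*, found in cortical and other forebrain neurons, had 724, 775 and 748 normalized counts in control and 1316, 1491 and 1528 in the libraries labelled Cre. *Pcdh7*, whose tail binds TAF1, SET and protein phosphatase 1 and which acts in retinal axons, had 635, 635 and 565 in control and 953, 1331 and 1219 in the libraries labelled Cre. In both genes the lowest value of the libraries labelled Cre, that of library 2, was well above the highest of control. *Pcdh9* differed by 0.94 in log2 (limma, standard error 0.12, adjusted p = 0.000747) and *Pcdh7* by 0.92 (standard error 0.14, adjusted p = 0.00292). Both passed in all 16 alternatives, with ranges of 0.90 to 1.01 and 0.82 to 1.06.

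*Pcdh11x*, an X-linked gene with a Y-linked copy in humans but not in the mouse, had 161, 176 and 197 normalized counts in control. In the libraries labelled Cre it had 411, 343 and 248. The groups did not overlap, but the libraries labelled Cre were spread widely, with a coefficient of variation of 24.5% against 10.4% in control. It differed by 0.88 in log2 (limma, standard error 0.19, adjusted p = 0.0165). The direction held in all 16 alternatives, while the call held in 12. It was lost without control library 1 (adjusted p = 0.0885, limma), 1_1 (0.0651) or library 2_2 labelled Cre (0.0763), and with control libraries 1 and 1_1 averaged (0.072).

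The fourth delta-1 member did not pass the test. *Pcdh1*, known for adhesion of airway epithelium, had 57.8, 74.6 and 30.7 normalized counts in control and 33.9, 75.8 and 76.1 in the libraries labelled Cre. Each group held 1 low library (control 2 and library 2 labelled Cre), and the groups overlapped. The log2 fold change was 0.18 with a 95% interval from -0.66 to 1.03 (limma adjusted p = 0.81), so a rise as large as that of the other delta-1 members was neither shown nor outside the interval. Its sign changed without control library 2 (-0.17).

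*Pcdh18*, whose tail binds the adaptor DAB1, had 107, 92.2 and 89.4 normalized counts in control and 119, 125 and 169 in the libraries labelled Cre. The groups did not overlap, but the nearest libraries, control 1 and library 2 labelled Cre, were close. The log2 fold change of 0.50 (standard error 0.20, 95% interval 0.06 to 0.94) did not pass after adjustment. Its unadjusted limma p was 0.0302 and its adjusted p was 0.146, from 0.0835 to 0.328 over the 16 alternatives. *Pcdh19*, an X-linked gene mutated in a form of epilepsy that affects mainly girls, had 234, 315 and 336 in control and 263, 234 and 208 in the libraries labelled Cre. It was the 1 tested member with a negative difference, the groups overlapped, and the log2 fold change of -0.32 (95% interval -0.70 to 0.07) did not pass (limma adjusted p = 0.292). The interval of *Pcdh19* lay wholly below those of *Pcdh7*, *Pcdh9*, *Pcdh10* and *Pcdh11x*, whose lowest bound was 0.45. The difference between members was not itself tested.

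In all, 5 of the 7 tested members other than *Pcdh17* had every library labelled Cre above every control library, which held for 14.7% of all genes tested.

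**Figure D2:**
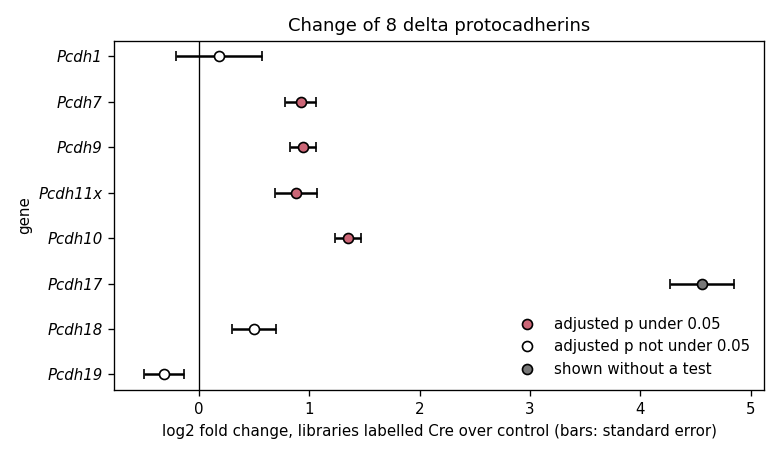
Log2 fold change of the 8 tested members, libraries labelled Cre over control (horizontal axis), with standard errors as bars, in red where the limma adjusted p was under 0.05, open where it was not, and in grey for *Pcdh17*, shown without a test. *Pcdh7*, *Pcdh9* and *Pcdh11x* lie together between 0.88 and 0.94, *Pcdh10* at 1.35 and *Pcdh17* at 4.56.

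**Figure D3:**
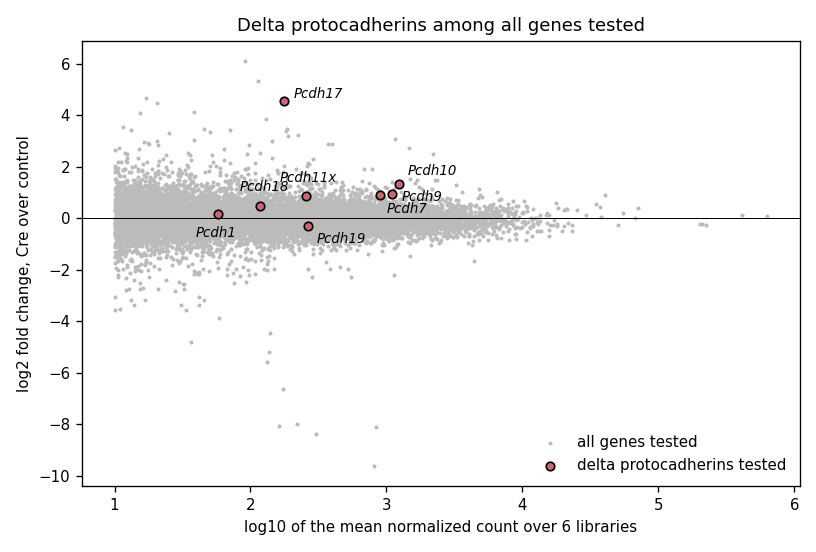
Log2 fold change (vertical axis) against the log10 of the mean normalized count over 6 libraries (horizontal axis) for all 14840 genes tested in grey, with the 8 tested members in red. *Pcdh17* stands near the upper edge of the cloud, and *Pcdh7*, *Pcdh9* and *Pcdh10* lie among the more abundant genes.

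*Pcdh8* (arcadlin), which in neurons is induced by activity and draws N-cadherin off the surface, had 0 reads in all control libraries and 1 read in library 2 labelled Cre. *Pcdh20* had 1 read in control library 1_1 and 0 in the other 5 libraries. Neither gene was tested and no fold change is given. A count of 0 allows up to 3 reads, between 2.08 and 4.39 normalized counts depending on the library, so lower levels would not have been detectable.

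Levels were compared between genes per kilobase of exon, with lengths from GENCODE M1 on mm9. The counting annotation is not given in the sources used here, and 32671 of the 53378 gene identifiers matched GENCODE M1. For *Pcdh9* this annotation holds a model of 3714 bases of which 3 are outside the coding sequence, so its level of 202 normalized counts per kilobase in control is per coding length, and its place among the members is uncertain. Of the others in control, *Pcdh7* stood highest with 98.6 ± 6.47 (SD, n = 3) normalized counts per kilobase, followed by *Pcdh10* with 66.1 ± 8.31. This order depends on the lengths used, because *Pcdh10* had more normalized counts per gene (704 against 612). Its model holds 7228 bases outside the coding sequence, against 2406 for *Pcdh7*. *Pcdh19* came next with 28.6 ± 5.23, then *Pcdh11x* with 19.6 ± 2.04 and *Pcdh18* with 18.6 ± 1.88, whose libraries overlap. *Pcdh1* had 6.43 ± 2.62 and *Pcdh17*, the lowest of the tested members, 1.5 ± 0.703 normalized counts per kilobase.

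By these same lengths, *Pcdh9* had 389 ± 30.5 (SD, n = 3) normalized counts per kilobase in the libraries labelled Cre, with its place again uncertain. Of the others, *Pcdh7* (188 ± 31.3 normalized counts per kilobase, SD, n = 3) and *Pcdh10* (168 ± 7.30) stood highest and overlapped. Below them *Pcdh11x* (36.8 ± 9.01) and *Pcdh17* (35.7 ± 3.19) did not differ beyond their spread, and *Pcdh18* (26.6 ± 5.31) overlapped with both of them and with *Pcdh19* (22.8 ± 2.69). *Pcdh1* stood at 7.33 ± 2.87. *Pcdh17* thus moved from the lowest of the tested members to the range of *Pcdh11x*, while *Pcdh19* had fewer normalized counts per kilobase than *Pcdh17* in each library labelled Cre.

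Some markers of glia differed between the groups along with these genes. The counts of markers below stand beside 4.74% higher and 5.22% lower over all genes tested. Of 7 astrocyte markers 6 were tested and 3 were higher (*S100b*, *Slc1a2* and *Aqp4*), with summed normalized counts from 3111 to 3411 in control and from 5590 to 6568 in the libraries labelled Cre, and *Gfap* at no more than 10.3. *Aldh1l1*, on the same list, differed in the other direction and did not pass, with control at 17.3 ± 2.34 normalized counts (SD, n = 3) against 5.35 ± 3.3 (log2 fold change -1.65, 95% interval -2.78 to -0.52, limma adjusted p = 0.065). Of 8 markers of the oligodendrocyte lineage 6 were tested and 3 were higher (*Olig2*, *Pdgfra* and *Cspg4*), with sums from 12488 to 14404 and from 17236 to 19639. Some of these calls were lost in alternatives, *Aqp4* holding in 10 of 15, *Cspg4* in 11 of 16 and *Pdgfra* in 14 of 16. Of 10 neuron markers 8 were tested, 1 higher (*Elavl4*) and 1 lower (*Gap43*, which held in 15 of 16 alternatives). Their sums, made up mostly of *Map2* and *Gap43*, ran from 17702 to 18794 and from 15273 to 17250, with *Stmn2* at 0 in all libraries and *Dcx* at no more than 12. The 6 microglia markers summed to 162 to 205 and 166 to 273, nearly all of it *Csf1r*, with *Tmem119* and *C1qa* at 0. The 5 endothelial markers reached at most 40.4, with *Cldn5* and *Cdh5* at 0, and the 5 markers of fibroblasts and meninges at most 20.6, with *Col1a2* and *Pdgfrb* at 0. The part of the glial markers in the protocadherin differences was not tested, and in bulk RNA a change in the number of cells of a type cannot be told apart from a change in RNA per cell.

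On mm10, 4 of the 10 members lie on chromosome 14: *Pcdh8* (79766772 to 79771312), *Pcdh17* (84443563 to 84537565), *Pcdh20* (88464743 to 88471396) and *Pcdh9* (93013700 to 93892834). *Pcdh17* and *Pcdh9* were higher in the libraries labelled Cre. *Pcdh8* and *Pcdh20* were at or near 0 in both groups, so no response can be read for them. Of the 14840 genes tested, 12931 had a symbol matched to RefSeq and could be placed. The nearest of these around *Pcdh17* are far away, *Sugt1* 4813 kb before it and *Diaph3*, a formin, 2118 kb after it. Neither passed the test, with log2 fold changes of -0.07 (standard error 0.11, limma adjusted p = 0.751) and 0.01 (standard error 0.14, limma adjusted p = 0.964). *Pcdh10* and *Pcdh18* lie on chromosome 3, *Pcdh11x* and *Pcdh19* on X, *Pcdh7* on 5 and *Pcdh1* on 18. On X and on chromosome 3 alike, 1 member rose and 1 did not pass. Genes annotated within the span of a member in GENCODE M1 that had values reached a mean of at most 2.02 normalized counts in control (*Gm14927*, within *Pcdh11x*). *Gm16795*, opposite to *Pcdh19*, had no value to compare. Whether counting used strand is not given in the sources used here.

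The genes whose pattern was most like that of *Pcdh17* were found by Pearson's r of log2(normalized count + 1) over the 6 libraries, among genes with a mean of at least 50. They were *Ptprk* (r = 0.9986), *Dmxl2* (0.9973), *Sox6* (0.9966), *Pcdh10* (0.9964) and *Zfhx4* (0.9961). All libraries of a group share their treatment, so r mostly reflects the step between the groups. The step itself differed in size. *Ptprk*, a receptor tyrosine phosphatase, had 1.73 ± 1.06 normalized counts (SD, n = 3) in control against 181 ± 24.1, and *Sox6*, a transcription factor of glial and neuronal precursors, had 555 ± 54.1 and 1190 ± 78.8. *Zfhx4* had 5.04 ± 3.28 and 223 ± 30.9, and *Dmxl2*, which acts in vesicle acidification, 176 ± 7.52 and 250 ± 4.08. Within the family, r with *Pcdh17* was 0.98 for *Pcdh9*, 0.95 for *Pcdh7*, 0.89 for *Pcdh11x*, 0.77 for *Pcdh18*, 0.23 for *Pcdh1* and -0.59 for *Pcdh19*.

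Genes whose products work with delta protocadherins were taken from a list of 26, of which 25 were tested. Of these, 2 were higher, 2 were lower and 21 did not pass, with a median log2 fold change of 0.03, beside 4.74% higher, 5.22% lower and a median of -0.001 over all genes tested. With so few calls the count is a description, and the values below are those of single genes. In the WAVE complex, which nucleates branched actin, *Cyfip2* rose from 119 ± 14.3 (SD, n = 3) to 214 ± 16.9 normalized counts (log2 fold change 0.84, standard error 0.17, limma adjusted p = 0.0108). *Nckap1*, which encodes the direct partner of PCDH10, had 1283 ± 79.3 and 1461 ± 80.5 (log2 fold change 0.19, limma adjusted p = 0.335), and *Wasf1* had a log2 fold change of 0.17 (limma adjusted p = 0.453). *Cdh2*, which encodes N-cadherin, had 817 ± 140 and 892 ± 46.4 normalized counts (log2 fold change 0.14, 95% interval -0.17 to 0.45, limma adjusted p = 0.585).

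*Ppp1ca*, which encodes a catalytic subunit of protein phosphatase 1, was lower, with 1549 to 1648 normalized counts in the control libraries and 1077 to 1107 in those labelled Cre (log2 fold change -0.56, standard error 0.11, limma adjusted p = 0.00852). *Set*, which encodes a partner of PCDH7, had a log2 fold change of -0.19 (limma adjusted p = 0.328). *Dlg4*, which encodes the synaptic scaffold PSD-95, was also lower, with 645 to 863 normalized counts in control and 299 to 492 in the libraries labelled Cre (log2 fold change -0.96, standard error 0.19, limma adjusted p = 0.00922). *Mef2c*, which encodes a transcription factor upstream of PCDH10 in synapse elimination, was higher (0.74, standard error 0.21, limma adjusted p = 0.0454), with 496 to 610 and 666 to 1297. These 4 calls were lost without some libraries: *Ppp1ca* without control 1 (adjusted p = 0.0621, limma), *Dlg4* without control 1_1 (0.0505) or 2 (0.0587), *Cyfip2* without control 1 (0.0668) or 2 (0.0501), and *Mef2c* in 6 of 16 alternatives (up to 0.178).

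Of 18 more distant relatives, members of the cadherin superfamily outside the classical cadherins and the protocadherin clusters, 8 were tested. Of these, 2 were higher, 1 was lower and 5 did not pass, with a median log2 fold change of 0.31, beside the same 4.74%, 5.22% and -0.001 over all genes tested. *Celsr1* and *Celsr2*, both seven-pass cadherins of planar cell polarity, went in opposite directions. *Celsr1* had 33.6 to 50.5 normalized counts in control and 86.0 to 99.0 in the libraries labelled Cre (log2 fold change 1.16, standard error 0.24, limma adjusted p = 0.0121), and *Celsr2* had 326 to 343 and 152 to 184 (-1.04, standard error 0.15, limma adjusted p = 0.00182). *Fat3*, a giant cadherin of neuronal shape, was higher with 237 to 288 and 362 to 552 (0.85, standard error 0.18, limma adjusted p = 0.0122). *Celsr2* passed in all 16 alternatives. *Celsr1* was lost without control 1_1 (adjusted p = 0.0557, limma), control 2 (0.0564) or library 2_2 labelled Cre (0.0572), and *Fat3* without control 1 (0.0621), control 2 (0.0685) or library 2_2 labelled Cre (0.0665).

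**Figure D4:**
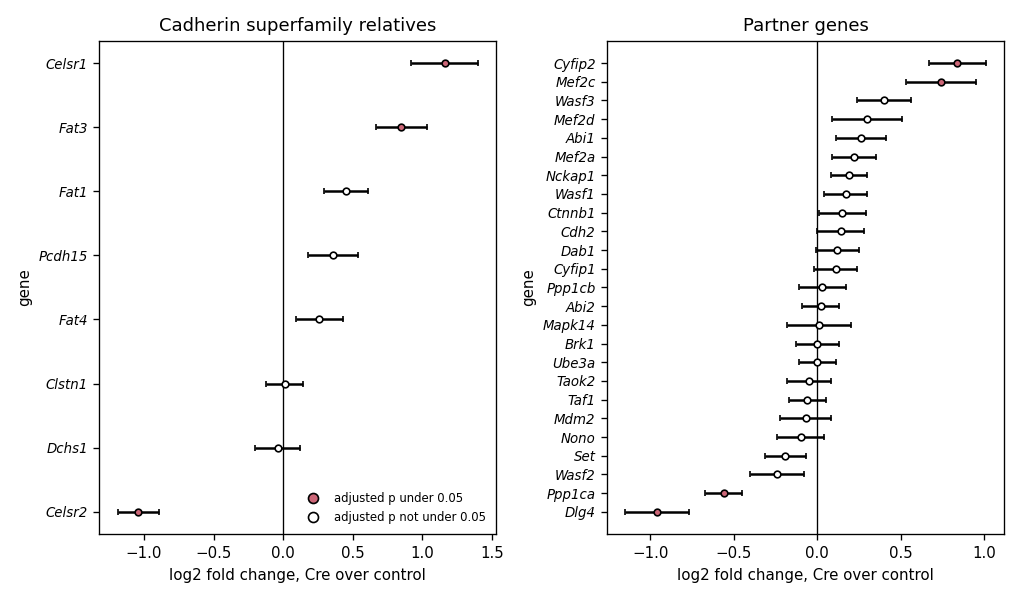
Log2 fold change, libraries labelled Cre over control (horizontal axis), of the 8 tested relatives (left) and 25 tested partner genes (right), with standard errors as bars and red points where the limma adjusted p was under 0.05. The red points are *Celsr1*, *Fat3* and *Celsr2* on the left, and *Cyfip2*, *Mef2c*, *Ppp1ca* and *Dlg4* on the right.

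**Figure D5:**
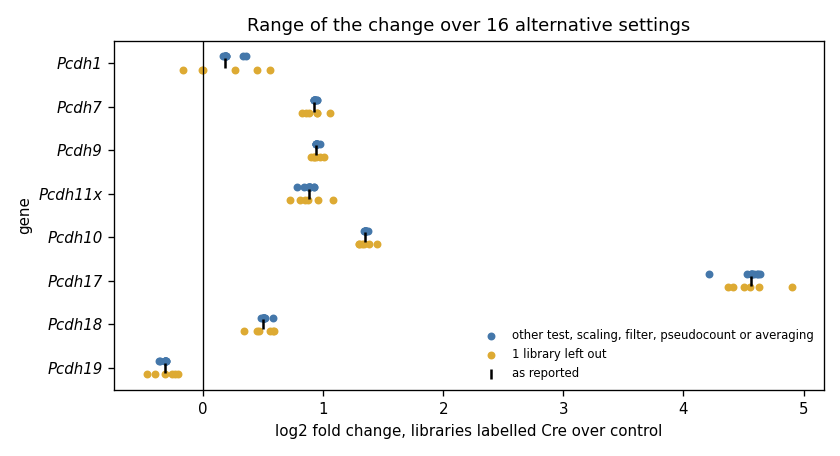
Log2 fold change of the 8 tested members (horizontal axis) as reported (black marks), with another test, scaling, filter, pseudocount or averaging (blue) and with 1 library left out (yellow), 16 alternatives in all. *Pcdh1* crosses 0, the others keep their sign, and *Pcdh17* runs from 4.21 to 4.90.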

How the data were processed

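RNA-seq of 6 mouse libraries was used, 3 labelled GFP (control) and 3 labelled Cre, grouped by their titles. The study's methods name TopHat, mm9 and mm10, and the submitters' processing notes name STAR 2.7, DESeq2 and mm10. The deposited values are normalized counts per gene, a signal made by the authors by dividing read counts by DESeq2 size factors. The deposited table also holds the authors' own comparison (log2 fold changes with errors, Wald statistics as a score, p-values and adjusted p-values), which was not used.

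In each library 100% of the values came out as whole reads once divided by what 1 read is worth (largest deviation 5.8e-05, tolerance 0.001), and these reads were recovered. Of 53379 rows, 1 lacked a library value and was left out, and 873 had no gene name. The main test was limma 3.58.1 (R 4.3.3; lmFit, eBayes with trend, two-sided, Benjamini-Hochberg, threshold 0.05) on log2(normalized count + 1) for genes with a mean of at least 10. It was checked on simulated counts. On the recovered reads, edgeR 4.0.16 called 1483 genes and DESeq2 1.42.0 called 1755, against 1478 with limma. The other alternatives were pseudocounts, filters, scalings, averaging like-numbered libraries, another threshold and leaving out each library.

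The members, and the lists of partners, relatives and markers, were chosen with earlier results of these data known. All members were named. From the lists, genes past the threshold and *Cdh2*, *Nckap1*, *Wasf1*, *Ppp1ca* and *Set* were named. Also named were the 5 genes most like *Pcdh17* and some of the nearest tested genes on each side of a member. The neighbours named were those of *Pcdh17*, those past the threshold, and *2610316D01Rik*. Promoters and gene order came from RefSeq (GRCm38.p6), exon lengths from GENCODE M1. A floor of 3 reads covers counting error only. Protein sequences were not used here. Figures were drawn with matplotlib 3.10.9.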

Additional observations from a re-analysis of the deposited data

How the results depend on the processing

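Over the 16 alternative fits (and an adjusted p under 0.1 for counts), between 3 and 4 of the 7 tested members other than *Pcdh17* were called, all of them higher. *Pcdh7*, *Pcdh9* and *Pcdh10* passed in all 16, *Pcdh18* and *Pcdh19* in 0, and *Pcdh11x* in 12. *Pcdh1* changed sign without control replicate 2 (-0.17), without Cre replicate 2_2 (-0.0035) and without Cre replicate 3 (-0.0068), and with 1 library left out it ran from -0.17 to 0.56. The count of genes called over the whole table moved from 1478 to 661 with control libraries 1 and 1_1 averaged, to 2380 at an adjusted p under 0.1, and to 563, 708 and 642 without control replicate 1, 1_1 and 2, 2387 without Cre replicate 2 and 735 without Cre replicate 2_2 (1440 without Cre replicate 3). With 1 library left out, the partner genes called ran from 1 to 4 and the relatives called from 1 to 3. The cause of these shifts was not tested. The median log2 fold change of all genes was -0.001 as reported, 0.007 with TMM scaling and 0.005 with total count scaling. No paired analysis was possible because the groups share only the replicate number 2. Depth limits *Pcdh17* in control (8 to 15 reads per library), *Pcdh8* and *Pcdh20*.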

Other observations

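Around the 10 members, 16 other genes were the nearest on either side in the mm10 gene order, among tested genes with a symbol matched to RefSeq. Of these, 2 passed the test, 1 higher and 1 lower, where 4.74% of all genes tested were higher and 5.22% lower. With so few genes this count is not a result about the neighbours. *Dach1*, which encodes a transcription cofactor of the retinal determination network and lies 3894 kb after *Pcdh9*, fell from 30.6 ± 2.52 (SD, n = 3) to 8.34 ± 4.26 normalized counts (log2 fold change -1.86, standard error 0.43, limma adjusted p = 0.0205), opposite in direction to *Pcdh9*. The call was lost without control library 1 (adjusted p = 0.104, limma), 1_1 (0.0816) or 2 (0.0806), and with control libraries 1 and 1_1 averaged (0.0844). *Arap2*, which encodes a GTPase-activating protein and lies 4469 kb after *Pcdh7*, was higher with 2160 ± 85.5 and 2838 ± 152 (log2 fold change 0.39, standard error 0.11, limma adjusted p = 0.045), a call that held in 8 of 16 alternatives. *2610316D01Rik*, which lies 0.138 kb before *Pcdh10*, had 53.9 ± 9.34 and 63.9 ± 24.8 normalized counts (log2 fold change 0.17, standard error 0.32, limma adjusted p = 0.788), beside the rise of *Pcdh10*.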
